A study of Mus musculus with 6 samples.

Results

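The genes for the proteins of the cytosolic ribosome were examined by ATAC-seq, which maps accessible DNA through insertions of the Tn5 transposase, in muscle stem cells (MuSCs) analysed straight after isolation from Taf4a sKO and control mice. A peak was taken as a ribosomal protein gene peak when the authors' annotation named a protein-coding gene whose symbol starts with Rpl or Rps followed by a number, p or a, leaving out the S6 kinases (Rps6k), and 112 of the 75412 peaks met this rule. They belonged to 76 genes. The symbols were taken as they stand, so the rule also drew in the paralogs Rpl7l1, Rpl22l1 and Rps27l, the pseudogene-like Rpl9-ps6 and Rps18-ps6, and Rps19bp1, which encodes a protein that binds RPS19 and is not part of the ribosome. For each gene the nearest peak within 1000 bp of the annotated start was called its TSS peak, which gave 68 TSS peaks (39 of large subunit genes, 25 of small subunit genes, and those of the 3 paralogs and Rps19bp1). The remaining 44 peaks, of 33 genes, are called other peaks.

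Both groups were C57BL/6 mice with 3 biological replicates and 1 library per replicate. Taf4a sKO mice carried floxed Taf4a (listed as Taf4 in the annotation) and the tamoxifen-inducible Pax7CE allele, which drives Cre in Pax7-expressing cells, and received tamoxifen. The control libraries are titled WT and have the genotype label Control. The study's methods list as controls littermates with the same floxed alleles and either a wild-type Pax7 locus or Pax7CE, and also list wild-type C57BL/6 mice, and some mice of both groups carried the Pax7-zsGreen reporter. The mice were adults of both sexes, and MuSCs were sorted by integrin-a7 or zsGreen after cells with SCA1, CD45 or CD31 had been removed on magnetic beads. Which of these genotypes each control library represents is not given in the sources used here. The study's list of genotypes names tamoxifen for the Taf4a sKO mice alone. Whether the control mice also received it is not stated there, and such a difference could not be told apart from genotype. Bulk libraries cannot tell apart a lower share of cells with an open site and a less open site in each cell.

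Every ribosome holds a single copy of nearly all of its proteins, assembled on ribosomal RNA into a small subunit, which reads the messenger RNA, and a large subunit, which joins the amino acids. Their genes are transcribed by RNA polymerase II at high and similar rates in most cells. Typical promoters of this class lack a strong TATA box and start within a run of pyrimidines, and the messenger RNAs begin with the 5′ terminal oligopyrimidine (TOP) motif, through which mTOR controls their translation. TAF4A is a subunit of TFIID, the general factor that recognizes such core promoters.

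ATAC-seq values are the authors' reads per peak, scaled for sequencing depth and rounded. Summed over all peaks they came to 37722015, 35226223 and 42803315 in the control libraries and 44311913, 41661725 and 41948821 in the Taf4a sKO libraries. Changes are log2 differences of value + 1, tested with limma across the 75384 peaks whose mean value exceeded 10, with Benjamini-Hochberg adjustment and a threshold of adjusted p 0.05. All 112 ribosomal protein gene peaks passed that minimum.

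The targeted gene was read first, as a check of the labels. No peak overlapped exon 11 of Taf4. The peak over exon 12, which like exon 11 is flanked by loxP sites, had values of 65, 78 and 137 in control and 44, 22 and 25 in Taf4a sKO MuSCs, so all Taf4a sKO libraries lay below all control libraries (log2 change -1.58, SE 0.30, adjusted p = 0.000336 by limma). The Taf4 promoter peak, outside the deleted part, read 2305, 1998 and 2375 against 2095, 2124 and 2104, with overlapping groups (log2 change -0.08, adjusted p = 0.592). Another Taf4 peak, 3331 bp upstream of the start, read 488, 437 and 653 against 831, 695 and 759, with all Taf4a sKO libraries higher (log2 change 0.55, SE 0.14, adjusted p = 0.00295 by limma).

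Promoter sequences were read for 7 genes with a TSS peak, namely the 3 with the highest control value per kb of peak (Rps19, Rpl37 and Rps21), the 3 with the lowest (Rpl6, Rps4x and Rpl37a), and Rplp0, whose transcript (36b4) served the study as qPCR reference. They are shown because they span the range of accessibility among these promoters. Each run is 150 bases of RefSeq promoter sequence (GRCm38.p6), 5′ to 3′ on the strand of the gene, with 100 bases before the annotated start. The windows lie at chr7:24884492-24884641, chr15:5116513-5116662, chr2:180257279-180257428, chr5:121204401-121204550, chrX:102189342-102189491, chr1:72711160-72711309 and chr5:115559367-115559516, with Rps4x on the minus strand and the others on the plus strand. Capitals mark, on either strand, CCAAT (the box bound by NF-Y), GGGCGG (Sp1), TATAAA (a core promoter box), CCGGAA (the core bound by ETS factors), ATGGCGG (YY1), CTTTCC (a pyrimidine tract as found at TOP starts) and TCTCGCG, which with its reverse strand CGCGAGA forms a palindrome where the 2 overlap.
Rps19: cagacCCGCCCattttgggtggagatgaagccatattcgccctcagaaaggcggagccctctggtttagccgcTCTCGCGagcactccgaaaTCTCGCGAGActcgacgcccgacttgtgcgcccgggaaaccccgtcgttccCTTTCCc
Rpl37: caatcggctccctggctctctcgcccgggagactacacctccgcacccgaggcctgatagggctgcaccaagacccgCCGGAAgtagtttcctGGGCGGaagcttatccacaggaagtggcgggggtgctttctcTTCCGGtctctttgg
Rps21: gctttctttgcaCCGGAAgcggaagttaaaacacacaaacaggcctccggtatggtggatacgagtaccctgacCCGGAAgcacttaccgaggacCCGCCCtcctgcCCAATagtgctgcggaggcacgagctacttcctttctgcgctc
Rpl6: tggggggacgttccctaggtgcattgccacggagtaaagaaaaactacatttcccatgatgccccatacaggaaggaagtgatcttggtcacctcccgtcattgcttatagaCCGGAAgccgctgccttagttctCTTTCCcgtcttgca
Rps4x: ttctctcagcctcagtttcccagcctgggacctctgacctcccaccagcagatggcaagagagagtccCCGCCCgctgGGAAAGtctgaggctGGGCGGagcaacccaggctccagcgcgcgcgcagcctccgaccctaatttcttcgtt
Rpl37a: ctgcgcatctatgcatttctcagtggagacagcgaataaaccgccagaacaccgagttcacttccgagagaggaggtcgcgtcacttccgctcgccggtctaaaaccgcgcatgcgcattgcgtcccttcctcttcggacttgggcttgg
Rplp0: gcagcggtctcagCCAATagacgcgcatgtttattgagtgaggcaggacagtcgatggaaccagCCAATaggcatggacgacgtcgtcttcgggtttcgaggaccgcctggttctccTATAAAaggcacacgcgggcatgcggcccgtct

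The Rps19 window holds TCTCGCG at 2 places, once before the start and once in the palindrome that spans it, and CTTTCC after the start, and no CCAAT. The Rplp0 window holds CCAAT at 2 places before the start and a TATAAA after it, whereas the Rpl37a window has none of the marked motifs. Of the 68 genes with a TSS peak, 49 had a RefSeq promoter whose start lies in that peak. Among the other 19 are Rpl21, Rpl23a, Rpl32, Rplp1, Rps14, Rps27a and Rps29.

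Over the full 300 bases from 250 before to 50 after the start, CTTTCC stood in 49.0% of the 49 ribosomal protein promoters, against 25.5% of the 8216 promoters of all protein-coding genes matched to a TSS peak in the same way and 26.6% of all 32851 promoters in the RefSeq table. CCGGAA, whose reverse strand TTCCGG can share bases with CTTTCC, stood in 49.0%, against 28.1% and 14.9%. ATGGCGG stood in 18.4%, against 8.3% and 4.1%. In the promoters of 46 mitochondrial ribosomal protein genes CCGGAA and ATGGCGG stood at similar shares (54.3% and 17.4%), CTTTCC in 28.3% and TCTCGCG in 6.5%. TCTCGCG stood in 10 promoters (20.4%), among them those of Rps19, Rps6 and Rpl10a, against 5.6% and 2.6%. CCAAT stood in 34.7%, against 38.0% and 37.4%, GGGCGG in 63.3%, against 70.9% and 35.7%, and TATAAA in 10.2%, against 6.1% and 13.6%. Counted only on the strand of the gene and near the start, the shares were lower. CTTTCC stood within 30 bases of the start in 5 of the 49 (10.2%, against 2.4% and 2.9%), and TATAAA in the 50 bases before the start in 1 (2.0%, against 1.4% and 2.6%). An unbroken run of at least 8 pyrimidines within the 41 bases around the start was found in 20 of the 49 (40.8%), against 15.2% and 16.5%, and median GC content was 58.0%, against 62.7% and 52.7%. These shares describe letters in a window, and a match is not a bound site.

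In control MuSCs the ribosomal protein promoters were open, and most lay above the middle of all promoters. The median control value per kb of peak was 1310.4 over the 68 TSS peaks and 1084.5 over the TSS peaks of all protein-coding genes, with peaks of similar width (medians 1135 and 1124 bp). Of the 68, 51 lay above the median of all TSS peaks, 21 in the highest quartile and 1 in the lowest. The order began with Rps19, a small subunit protein mutated in Diamond-Blackfan anaemia (3610.7 per kb), followed by Rpl37, a zinc-binding large subunit protein (3337.2 per kb), and Rps21 of the small subunit (2682.7 per kb). It ended with Rpl37a, another zinc-binding large subunit protein (696.2 per kb), Rps4x, the X-linked small subunit protein (557.6 per kb), and Rpl6 of the large subunit (497.3 per kb). The large and the small subunit genes had medians of 1307.0 and 1313.8 per kb.

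The Rps19 TSS peak (chr7:24883731-24885076) had values of 4799, 4258 and 5523 in control and 5333, 4456 and 4489 in Taf4a sKO libraries. The Rpl37 TSS peak (chr15:5115942-5117073) had 3822, 3306 and 4205 against 4266, 4000 and 4055. In both, the control libraries spanned a wider range than the Taf4a sKO libraries and the groups overlapped. At the other end, the Rpl6 TSS peak (chr5:121204086-121205134) read 481, 490 and 594 against 555, 604 and 535, and the Rps4x TSS peak (chrX:102188827-102189783) read 533, 450 and 618 against 593, 588 and 594, again with overlapping groups. At each of these 4 peaks control replicate 2 or 1 was the lowest and control replicate 3 the highest of the control libraries. The log2 changes were -0.03 for Rps19, 0.13 for Rpl37, 0.12 for Rpl6 and 0.16 for Rps4x, and none passed the threshold (adjusted p = 0.864, 0.344, 0.484 and 0.341 by limma).

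Accessibility at ribosomal protein promoters differed little between control and Taf4a sKO MuSCs. Of the 68 TSS peaks, 1 was called higher (1.47%), that of Rps14, and none was called lower by limma, while 2 were at an unadjusted p under 0.05, both higher. Among the TSS peaks of all protein-coding genes 9.91% were called higher and 5.44% lower (15.3% in all), and among all peaks 28.0% and 13.9% (41.9% in all). The median log2 change of the 68 was 0.09 (quartiles 0.04 and 0.13, range -0.07 to 0.49), beside 0.06 over the TSS peaks of all protein-coding genes and 0.105 over all peaks tested, and 65 of the 68 lay within 0.2 of 0. The 39 large subunit and the 25 small subunit genes had the same median change, 0.09. Among the scalings tried, the median change was positive with the deposited scaling and with scaling to the median of TSS peaks (0.03). It was -0.02 with TMM and with median-of-ratios scaling and -0.06 with scaling to the total signal in peaks, so its sign follows the scaling.

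**Figure D1:**
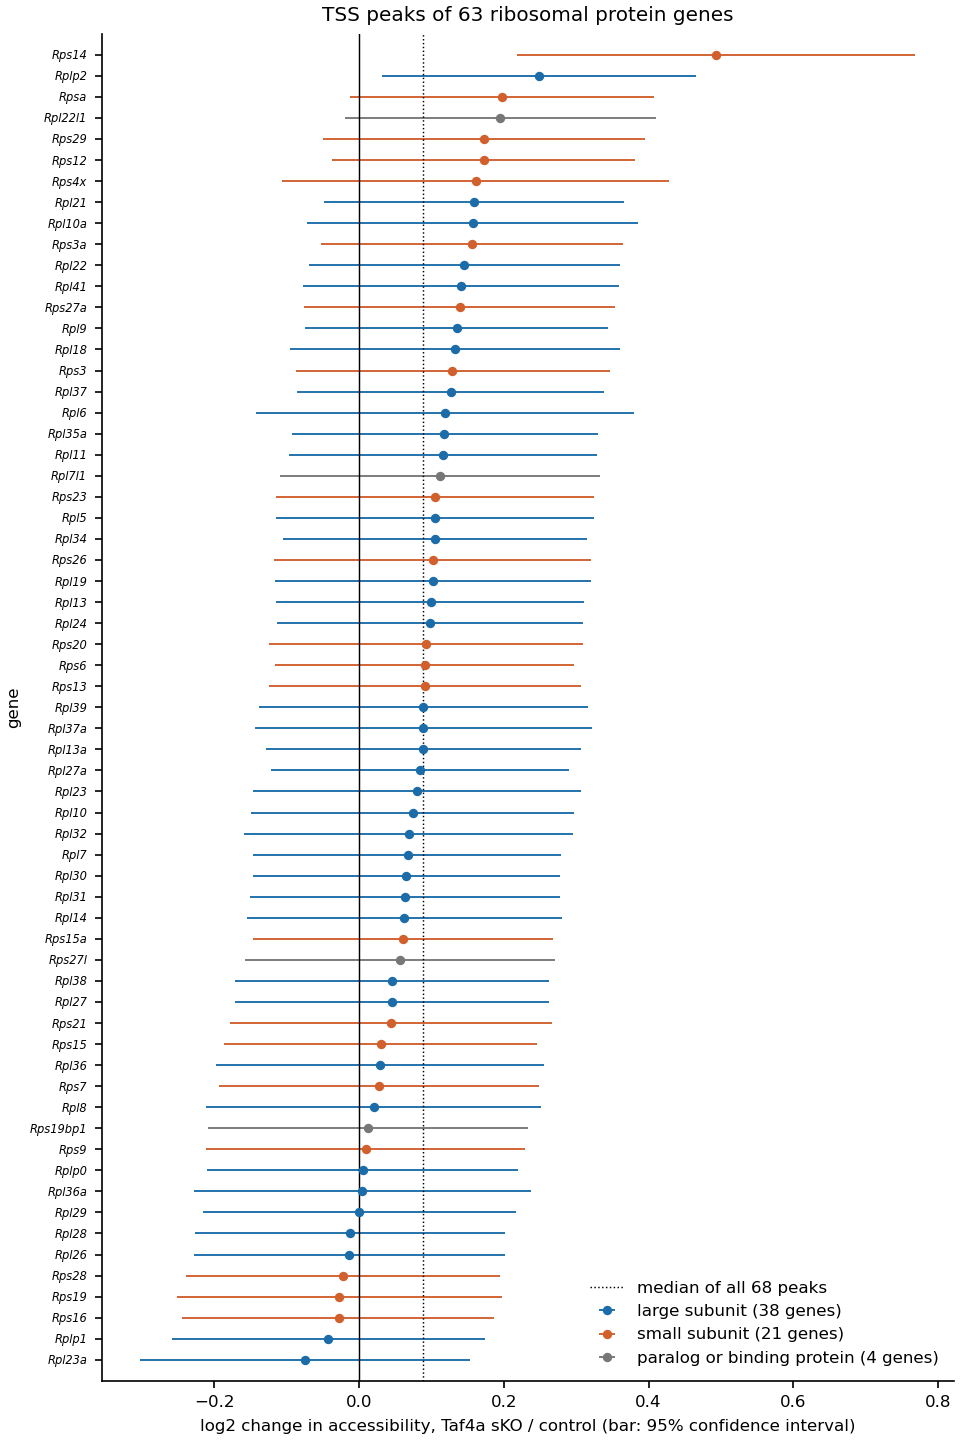
Log2 change in accessibility (Taf4a sKO over control, x axis) of the TSS peak of each of 63 of the 68 ribosomal protein genes (y axis), with bars for the 95% confidence interval from limma, 3 libraries per group. Changes run from -0.07 to 0.49, with a dotted line at the median of all 68 peaks, 0.09, and the interval of Rps14 lies farthest above 0.

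The libraries show the same closeness. The median value over the 68 TSS peaks was 1466.0, 1335.0 and 1648.5 in control and 1624.5, 1587.5 and 1547.0 in Taf4a sKO libraries, so the Taf4a sKO libraries lay within the range of the control libraries. As a share of the signal in all peaks, the 68 TSS peaks held 0.305%, 0.297% and 0.296% in control and 0.283%, 0.290% and 0.286% in Taf4a sKO libraries, with all Taf4a sKO libraries lower. The TSS peaks of all protein-coding genes also took a smaller share in all Taf4a sKO libraries (46.33%, 45.54% and 45.13% against 43.16%, 43.64% and 43.21%). Within the signal of all TSS peaks the ribosomal protein share overlapped between the groups (0.659%, 0.651% and 0.657% against 0.656%, 0.665% and 0.662%). In 7 of the 68 TSS peaks all Taf4a sKO libraries were above all control libraries and in none below, where 18.7% and 10.7% of all TSS peaks did so.

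Control replicate 3 had the highest values of the control libraries and decides how many promoters pass. Without it 17 of the 68 TSS peaks were called higher and 27.7% of the TSS peaks of all protein-coding genes, with a median log2 change of the 68 of 0.15. Leaving out any other library gave 1 call, again Rps14. Without control replicate 2, the control library with the lowest values, the median was 0.02 and 27 of the 68 changes were below 0, in place of 8 with all libraries. The 17 included Rplp2, Rpsa, Rpl10a and Rps29. With TMM or median-of-ratios scaling 5 were called lower, among them Rpl28, Rps19, Rplp1 and Rpl23a, and Rplp2 and Rps14 were called higher. These 5 (7.35%) stand beside 22.4% of the TSS peaks of all protein-coding genes called lower with TMM and 23.1% with median-of-ratios scaling. With scaling to the total signal 13 were called lower (19.1%), beside 33.6%.

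**Figure D2:**
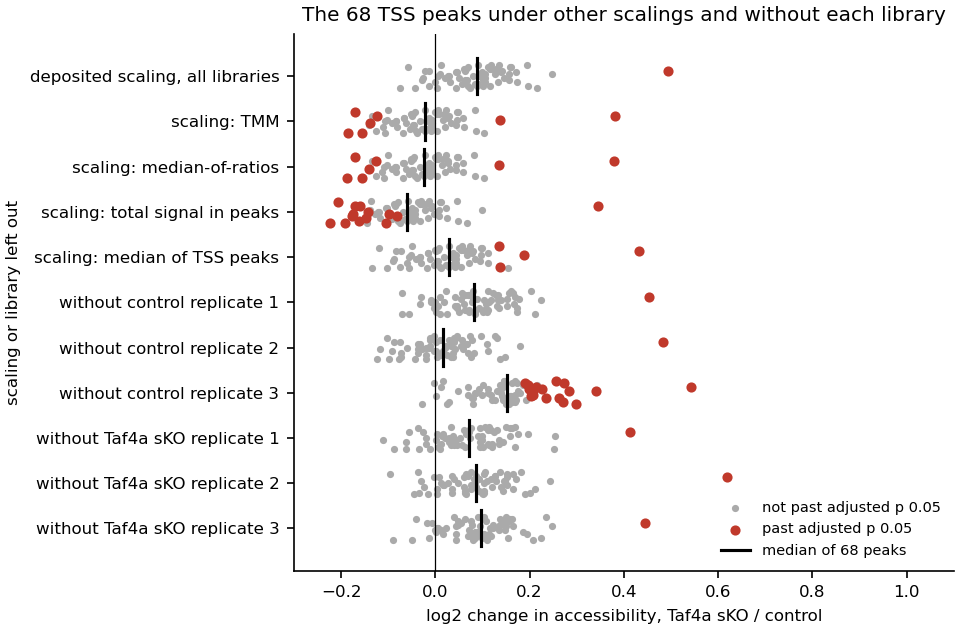
Log2 change (x axis) of the 68 ribosomal protein TSS peaks with the deposited scaling, under 4 other scalings and without each library in turn (y axis), where each point is a gene, red points are past adjusted p 0.05 and black bars are medians. The medians run from -0.06 with scaling to total signal to 0.15 without control replicate 3, and Rps14 is called in each row.

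Stalk proteins form a flexible arm of the large subunit that recruits the translation GTPases. Rplp0, the base of the stalk, had TSS peak values (chr5:115559224-115560153) of 1832, 1706 and 2089 in control and 1939, 1859 and 1830 in Taf4a sKO libraries. The Taf4a sKO values lay within the control range, and the log2 change was 0.005 with a 95% confidence interval of -0.21 to 0.22 (SE 0.10, adjusted p = 0.975 by limma). With scaling to the total signal in peaks it was -0.14 (adjusted p = 0.0135). Rplp2, which pairs with Rplp1 on the stalk, read 1745, 1637 and 2050 against 2125, 2157 and 2142 (chr7:141447035-141448054). All Taf4a sKO libraries were above all control libraries, and the log2 change of 0.25 (SE 0.10) had an adjusted p of 0.0606 by limma. Rplp1 had a log2 change of -0.04 with overlapping groups.

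Low p-values were also those of Rpsa, a small subunit protein also known as the laminin receptor (log2 change 0.20, adjusted p = 0.127), and Rpl22l1, the paralog of Rpl22 (0.20, adjusted p = 0.139), neither past the threshold of limma. Among the genes with roles beyond the ribosome, Rpl5 and Rpl11, which bind MDM2, had log2 changes of 0.10 and 0.12, Rps6, the substrate of the S6 kinases, 0.09, and Rps27a, made as a fusion with ubiquitin, 0.14. Among the lowest changes were those of Rpl23a (-0.07) and Rplp1, and their intervals spanned 0. Median log2 change was 0.08 with and 0.10 without CCAAT in the promoter (17 and 32 genes), beside 0.07 and 0.05 for all protein-coding genes. It was 0.07 for the 10 promoters with TCTCGCG and 0.10 for the 39 without it. For TATAAA the medians were 0.005 with it (5 genes) and 0.09 without (44 genes). Differences between these groups were not tested.

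Rps14, a small subunit protein needed for processing of the small subunit RNA, was the gene with the called TSS peak. That peak (chr18:60746911-60747267, 357 bp wide) read 400, 418 and 453 in control and 665, 500 and 636 in Taf4a sKO libraries. All Taf4a sKO libraries were higher, with a log2 change of 0.49 (SE 0.13, adjusted p = 0.00448 by limma). It covers the upstream start of extended Rps14 transcripts within the Ndst1 gene. The start of the transcript Rps14-201 in GENCODE vM21 lies 27.3 kb farther downstream, under a peak (chr18:60774131-60775238) that the authors' annotation gives to a processed pseudogene. There the values were 2046, 1920 and 2352 in control and 2113, 2176 and 2150 in Taf4a sKO libraries. The groups overlapped, and the log2 change was 0.03 (95% confidence interval -0.18 to 0.25, adjusted p = 0.827). The call thus concerned the narrow upstream peak and not the main Rps14 promoter.

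The other peaks annotated to Rps14, both inside Ndst1, were also higher. The nearer (1440 bp upstream, chr18:60745389-60745926) read 593, 637 and 892 in control and 1410, 1395 and 1341 in Taf4a sKO libraries, with a wide gap between the groups (log2 change 0.99, SE 0.13, adjusted p = 5.22e-06 by limma). The farther (10194 bp upstream) read 1086, 1009 and 1547 against 1700, 1606 and 1698 (log2 change 0.48, adjusted p = 0.00616). Between them and the main Rps14 promoter lies the Ndst1 promoter peak, which also covers an Rps14 transcript start and read 1828, 1735 and 1906 against 2089, 1987 and 2008, without overlap (log2 change 0.15, adjusted p = 0.223). Farther toward the main promoter a peak with no gene in the table (chr18:60763016-60764205) read 665, 636 and 1036 against 1112, 1107 and 1055 and was called higher (log2 change 0.52, adjusted p = 0.0102). In the same stretch the peaks at chr18:60750633-60750847, chr18:60756199-60757236 and chr18:60766973-60767533 were not called. Their log2 changes were 0.265, 0.05 and -0.03 (adjusted p = 0.28, 0.784 and 0.875 by limma). Ndst1 encodes an enzyme that sulfates heparan sulfate.

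Because each peak was annotated to a single gene, the rule missed promoters that ribosomal protein genes share with a neighbour. In all, 7 genes of the ribosome have no peak under their own symbol, and their start lies in the promoter peak of another gene: Rpl4 (Zwilch), Rpl7a (Med22), Rpl15 (Nkiras1), Rps10 (Gm49804), Rps18 (Vps52), Rps25 (Trappc4) and Rps27 (Rab13). The starts of Rpl3 and Rpl12 lie in peaks annotated to Syngr1 and Lrsam1, while Rpl17, Rps2 and Rps24 have a peak over a start that the table places 2113, 1932 and 3764 bp from the annotated gene start. Of 79 ribosomal protein genes listed by name, 78 had at least 1 peak over the start of a protein-coding transcript, 81 peaks in all. The exception was Rpl35, whose start lies 121 bp past the edge of a peak annotated to Arpc5l (chr2:39004483-39005503). The peak annotated to Rpl35 covers the Arpc5l start, and its edge lies 2113 bp from the Rpl35 start. Of the 81 peaks 1 was called higher, the upstream Rps14 peak, and none lower, with a median log2 change of 0.08.

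In the shared peaks the groups were close. The Nkiras1 and Rpl15 peak (chr14:18270430-18271685) read 3016, 2749 and 3259 in control and 3360, 3252 and 3397 in Taf4a sKO libraries, overlapping by 1 control library (log2 change 0.15, adjusted p = 0.230 by limma). The Zwilch and Rpl4 peak (chr9:64172479-64173784) read 1293, 1141 and 1288 against 1078, 1128 and 1134, with all Taf4a sKO libraries lower (log2 change -0.15, adjusted p = 0.253). Fau, which encodes a ribosomal protein made as a fusion with a ubiquitin-like protein, had a log2 change of -0.05. The paralogs with a TSS peak were Rpl22l1, Rpl7l1 (0.11) and Rps27l (0.06), and Rps19bp1 had 0.01. The start of Rpl36al lies in the Mgat2 peak (0.14), and no peak covers the starts of Rpl3l, Rpl10l, Rpl39l, Rps4l, Rps27rt and Rpl37rt.

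Changes were larger away from the promoters. Of the 44 other peaks, 10 were called higher (22.7%) and 9 lower (20.5%), beside 25.8% and 14.0% of the other peaks of all protein-coding genes (39.9% in all). The median log2 change was -0.07 (range -2.89 to 1.42), beside 0.07 for the other peaks of all protein-coding genes. The sign of this median rests on single libraries, since it was 0.02 without control replicate 3, 0.004 without Taf4a sKO replicate 3 and -0.15 without control replicate 2. By the fold threshold of the study (log2 ratio of group means beyond 1), 1 of the 44 was gained and 6 were lost, beside 5.30% and 4.63% of the other peaks of all protein-coding genes (9.93% together, and 12.4% of all peaks). None of the 68 TSS peaks was gained or lost, beside 1.56% of all TSS peaks. With TMM scaling 9 other peaks were higher and 18 lower, and with scaling to the total signal 9 and 20. The other peaks of all protein-coding genes moved in the same direction, to 23.5% higher and 23.8% lower with TMM and 21.8% and 27.1% with the total signal, so the balance of directions follows the scaling.

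**Figure D3:**
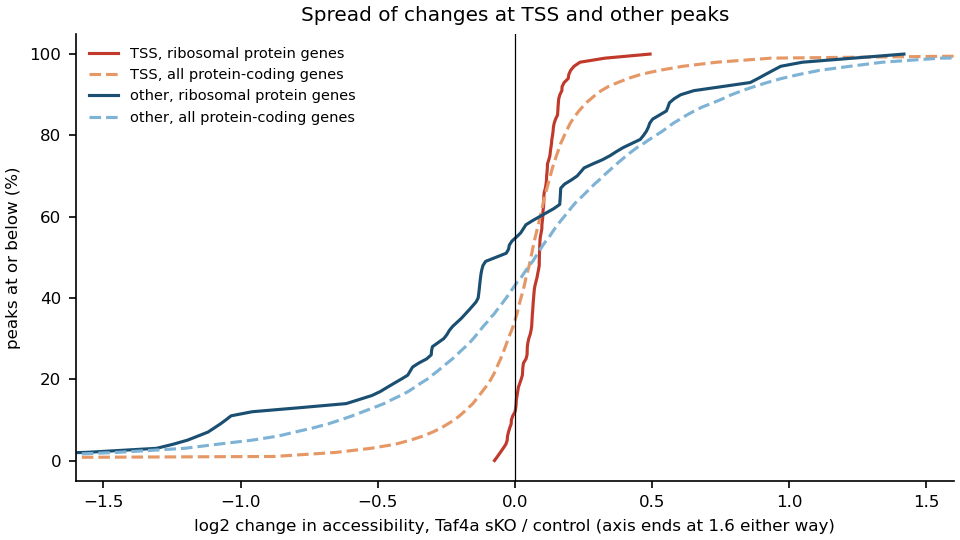
Cumulative share of peaks (y axis, percent) by log2 change (x axis, Taf4a sKO over control) for TSS and other peaks of ribosomal protein genes (solid) and of all protein-coding genes (dashed). The curve of the 68 ribosomal protein TSS peaks is the steepest, with quartiles of 0.04 and 0.13, and that of the 44 other peaks runs from -2.89 (beyond the axis) to 1.42.

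The median size of change was larger in each range farther from the gene start, both for ribosomal protein genes and for all protein-coding genes. The median absolute log2 change was 0.09 for the 68 peaks within 1 kb, 0.23 for the 8 peaks between 1000 and 3000 bp, 0.31 for the 13 between 3000 and 6000 bp and 0.46 for the 23 farther out. The peaks of all protein-coding genes had 0.12, 0.27, 0.32 and 0.35 in these ranges. Of the 44 other peaks 24 had their centre in no gene, 13 in an intron and 7 in an exon, often of a neighbour. The 7 that cover a start site of some gene held 1 of the calls (lower), and the 37 that cover none held 10 higher and 8 lower.

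**Figure D4:**
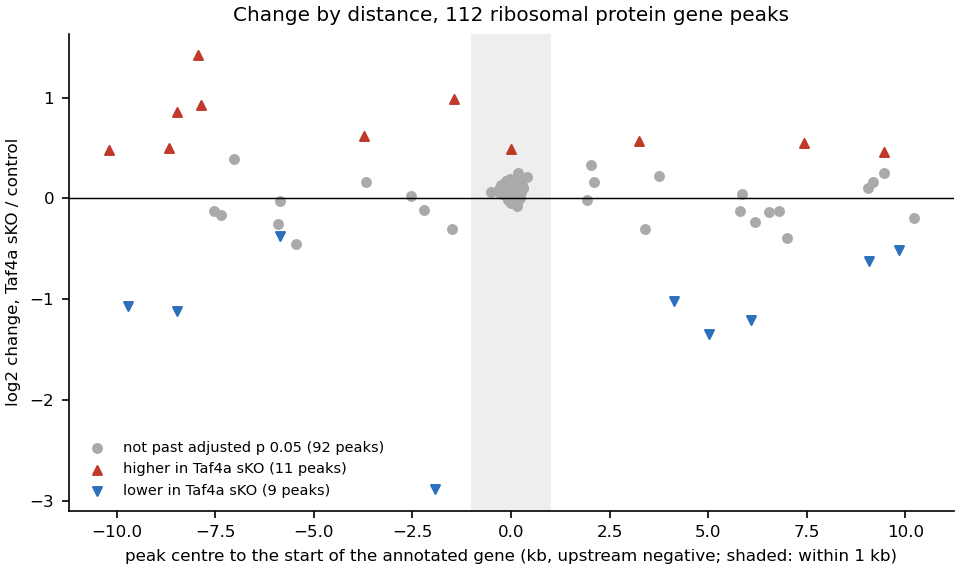
Log2 change (y axis, Taf4a sKO over control) of the 112 ribosomal protein gene peaks against the distance of the peak centre from the annotated start (x axis, kb, upstream negative), with triangles for the 11 peaks higher and the 9 lower in Taf4a sKO at adjusted p 0.05. Inside the shaded 1 kb the points lie close to 0 apart from Rps14, and the lowest point is the Rpl13 peak at -2.89.

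The strongest fall was that of a peak 1935 bp upstream of Rpl13, a large subunit protein, at chr8:123100292-123100537. It read 147, 97 and 119 in control and 14, 15 and 17 in Taf4a sKO libraries. The groups were far apart, with a log2 change of -2.89 (SE 0.25, adjusted p = 1.27e-08 by limma). The Rpl13 TSS peak read 1285, 1250 and 1380 against 1463, 1406 and 1323 with overlapping groups (log2 change 0.10, adjusted p = 0.475). A peak 5026 bp downstream of the Rpl32 start (chr6:115803522-115803920), in an exon of Cand2, read 315, 306 and 384 against 128, 122 and 142, again without overlap (log2 change -1.35, SE 0.15, adjusted p = 3.63e-07). The Rpl32 TSS peak had a log2 change of 0.07 (adjusted p = 0.654).

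The gained peak lay 7927 bp upstream of Rpl21 (chr5:146824748-146825177), outside any gene. It read 39, 38 and 49 in control and 97, 130 and 115 in Taf4a sKO libraries, a log2 change of 1.42 (SE 0.21, adjusted p = 1.23e-05 by limma), with no overlap. The Rpl21 TSS peak read 1388, 1340 and 1456 against 1549, 1572 and 1547, also without overlap (log2 change 0.16, adjusted p = 0.217). Without control replicate 3 it was called higher (0.19, adjusted p = 0.0439). Sequences are printed for the central 200 bases of these 3 peaks, which had the largest log2 changes of the 44. They are plus strand sequence of GRCm38.p6, from chr8:123100315-123100514, chr6:115803622-115803821 and chr5:146824863-146825062, with capitals for TGANTCA (AP-1), CAGCTG (an E-box bound by myogenic factors), CCAAT and GGGCGG on either strand.
Rpl13 upstream peak: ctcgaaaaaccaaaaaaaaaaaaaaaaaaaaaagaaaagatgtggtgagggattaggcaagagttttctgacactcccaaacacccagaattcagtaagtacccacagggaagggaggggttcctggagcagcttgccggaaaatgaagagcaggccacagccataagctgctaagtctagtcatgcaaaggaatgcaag
Rpl32 downstream peak: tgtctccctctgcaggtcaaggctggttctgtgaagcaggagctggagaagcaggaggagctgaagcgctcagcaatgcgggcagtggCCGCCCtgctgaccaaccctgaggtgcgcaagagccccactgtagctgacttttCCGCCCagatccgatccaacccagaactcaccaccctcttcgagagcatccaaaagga
Rpl21 upstream peak: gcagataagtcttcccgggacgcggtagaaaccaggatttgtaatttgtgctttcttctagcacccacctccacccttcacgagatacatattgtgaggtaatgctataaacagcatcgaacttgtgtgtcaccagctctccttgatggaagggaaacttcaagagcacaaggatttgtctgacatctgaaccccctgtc

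Of these sequences, that of Rpl32 holds a marked motif, GGGCGG read on the minus strand, at 2 places. In the central 200 bases of the 44 other peaks TGANTCA stood in 4 (9.1%), beside 16.6% of the 11526 other peaks of all protein-coding genes. CAGCTG stood in 13 (29.5%, beside 21.9%), CCAAT in 6 (13.6%, beside 22.0%) and GGGCGG in 7 (15.9%, beside 15.7%). Among the 10 higher and the 9 lower peaks, TGANTCA stood in 3 and 0 and CAGCTG in 2 and 1. CCAAT stood in 1 and 2 and GGGCGG in 1 and 1 of them, and these differences were not tested. Repeat-masked bases made up at least 50% of the window in 3 of the 44 peaks (6.8%, beside 3.7%), and median GC content was 52.5% in both sets. The Rpl13 window was 23.0% repeat-masked and includes a run of A.

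Rpl12, a large subunit protein at the base of the stalk, had peaks 9704 and 8465 bp upstream, both in an intron of Lrsam1. The first (chr2:32951290-32952419) read 295, 234 and 233 in control and 118, 118 and 124 in Taf4a sKO libraries (log2 change -1.07, adjusted p = 1.06e-05 by limma). The second (chr2:32952730-32953458) read 169, 122 and 107 against 68, 56 and 55 (log2 change -1.12, adjusted p = 1.23e-04). Both fell in all Taf4a sKO libraries, whereas the promoter peak shared by Rpl12 and Lrsam1 read 1121, 1005 and 1247 against 1213, 1177 and 1150 (log2 change 0.07, adjusted p = 0.617).

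Of the remaining called peaks that fell, that of Rpl8 (4132 bp downstream), a large subunit protein near the peptidyl transferase centre, read 101, 129 and 163 in control and 78, 66 and 48 in Taf4a sKO libraries (log2 change -1.02, adjusted p = 6.17e-04 by limma). The groups did not overlap. A low peak downstream of Rpl6 read 14, 15 and 47 against 12, 11 and 5 (log2 change -1.21, adjusted p = 0.0481), and its call rests on single libraries, since without control replicate 3 the log2 change was -0.66 (adjusted p = 0.293). A peak annotated to Rpl3, 5867 bp upstream and over a start of Syngr1, also fell (log2 change -0.37). Its adjusted p by limma was 0.106 without control replicate 1, 0.064 without Taf4a sKO replicate 2 and 0.231 without Taf4a sKO replicate 3. The peak over the Rpl3 start was not called (log2 change -0.10, adjusted p = 0.484 by limma).

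Peaks that rose included those 8468 bp upstream of Rps27l, the p53-inducible paralog of Rps27, with 86, 80 and 92 in control and 171, 138 and 163 in Taf4a sKO libraries (log2 change 0.86, adjusted p = 3.56e-04 by limma). A peak 7874 bp upstream of Rpl7l1 read 74, 53 and 73 against 147, 116 and 117 (log2 change 0.92, adjusted p = 6.24e-04). In both, all Taf4a sKO libraries were higher. Peaks of Rpl19, Rpl17, Rpl9-ps6, Rps16 and Rps18-ps6 rose by 0.46, 0.50, 0.62, 0.55 and 0.57 on the log2 scale. The call of Rps18-ps6 was lost under all 4 other scalings (adjusted p = 0.0728 to 0.122) and without control replicate 3 or Taf4a sKO replicate 1 or 3 (0.0577 to 0.0764). That of Rps16 was lost without control replicate 1 (0.0525) or Taf4a sKO replicate 1 (0.0971). Of the 44 other peaks, 13 had all Taf4a sKO libraries above all control libraries and 14 below, where 30.1% and 19.4% of the other peaks of protein-coding genes did so.

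**Figure D5:**
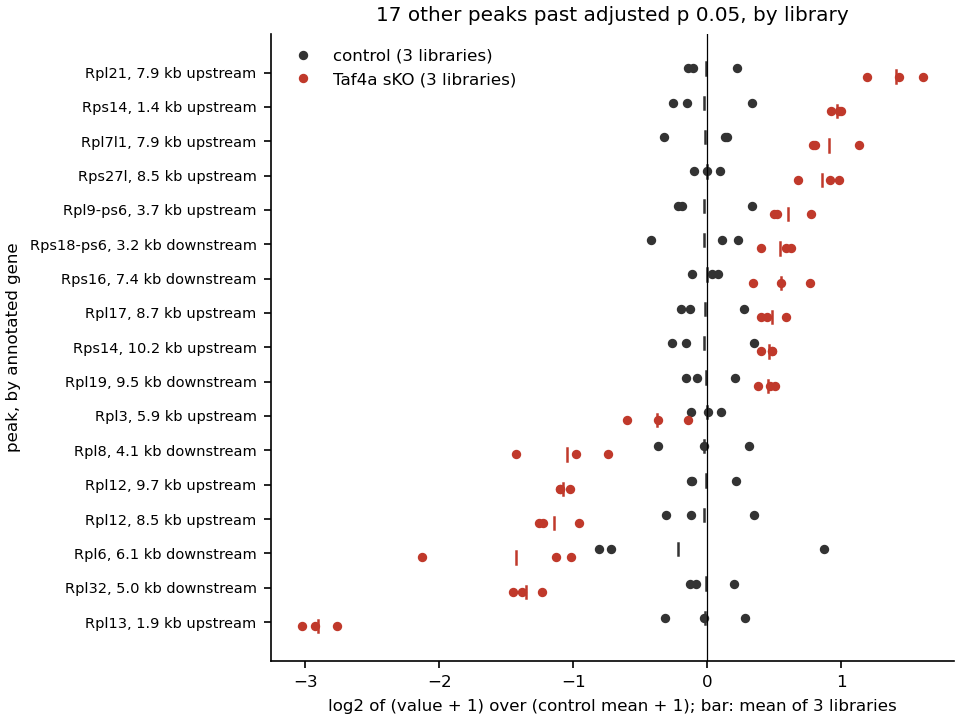
Values of the 3 control (black) and 3 Taf4a sKO (red) libraries at 17 of the 19 other peaks past adjusted p 0.05 (y axis, by annotated gene and distance), as log2 of value + 1 over the control mean + 1 (x axis), with a bar at the mean of each group. The 7 peaks shown that fell run down to Rpl13 and the 10 that rose up to Rpl21, and the control libraries of the Rpl6 peak are spread widely (14, 15 and 47).

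Genes that make and regulate the ribosome were read the same way at their TSS peaks, beside the 9.91% higher and 5.44% lower among the TSS peaks of all protein-coding genes. Of 65 ribosome biogenesis genes 50 had a TSS peak. Among them 1 was higher, Ltv1, an assembly factor of the small subunit (1303, 1226 and 1350 in control against 1686, 1481 and 1546 in Taf4a sKO libraries, log2 change 0.28, adjusted p = 0.0324 by limma), and none was lower, with a median of 0.02. Of 14 genes of the RNA polymerase I machinery 11 had a TSS peak, of which 1 was higher, that of Ubtf, the upstream binding factor of ribosomal DNA (696, 721 and 849 against 1088, 1015 and 1072, log2 change 0.49, adjusted p = 0.00118). Neither gene had overlapping groups. The Ubtf peak is 645 bp wide and centred 898 bp upstream of the annotated start, so it does not cover that start. In the RNA polymerase I list none was called lower, while 1 higher and 1 lower peak stood at an unadjusted p under 0.05. In the biogenesis list 2 higher and 0 lower did so. None of the 36 TSS peaks of translation factors and none of the 7 of TOP translation control genes was called in either direction by limma, and 0 of either list were at an unadjusted p under 0.05, with median log2 changes of 0.08 and 0.06. These lists were read with the deposited scaling alone.

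The 55 TSS peaks of mitochondrial ribosomal protein genes, which are encoded in the nucleus and serve the ribosome of the mitochondrion, had 0 higher and 4 lower by limma (4 and 5 at an unadjusted p under 0.05). The 4 are 7.27%, near the 5.44% of all TSS peaks called lower. The set had a median log2 change of -0.002 (range -0.47 to 0.33). Mrps2 read 524, 469 and 596 in control and 366, 362 and 414 in Taf4a sKO libraries (log2 change -0.47, adjusted p = 0.00603), and Mrps21 had a log2 change of -0.34 (adjusted p = 0.0341). Whether the cytosolic and the mitochondrial set differ was not tested.

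Cell type markers were read beside these results, and their part in them was not tested. The isolation removed cells with CD45 (leukocytes), CD31 (endothelial cells) and SCA1 (which marks fibroadipogenic progenitors, among others). By the study's own reanalysis the sorted cells were not fully pure, and other cells made up a substantial minority. All 8 MuSC markers had a TSS peak, the highest value being that of Pax7 (4533, 3128 and 3729 in control against 3084, 2923 and 3026 in Taf4a sKO libraries, log2 change -0.32, adjusted p = 0.0302 by limma), while Vcam1 was higher (0.35, adjusted p = 0.0184). The Pax7CE allele of the Taf4a sKO mice lies at the Pax7 locus itself, and its effect on this peak was not tested. Summed over these 8 peaks the values were 14178, 11736 and 14348 in control and 13419, 12622 and 12680 in Taf4a sKO libraries. All 30 peaks of these markers summed to 27815, 23080 and 28436 against 29968, 27519 and 28219. Of the 30, 10 were called higher and 3 lower by limma (median log2 change 0.22). Shares called higher and lower were 28.0% and 13.9% of all peaks, and 9.91% and 5.44% of the TSS peaks of all protein-coding genes. None of 6 leukocyte markers had a TSS peak. The 3 peaks of the 2 with any peak summed to 842, 941 and 942 against 1252, 1103 and 1385, with Spi1 the highest. Of these 3 peaks 1 was called higher by limma (2 at an unadjusted p under 0.05, both higher). Among the other peaks of all protein-coding genes 25.8% were called higher. Of 5 endothelial markers 2 had a TSS peak (summed values 1320, 1147 and 1648 against 1782, 1802 and 1704), with Tek higher (0.40, adjusted p = 0.0101). Over all 6 peaks of this list 2 were called higher and 1 lower by limma, with log2 changes from -1.69 to 0.90. Of 5 markers of fibroadipogenic progenitors 3 had a TSS peak (1026, 978 and 1154 against 909, 896 and 862). There Dcn was higher (0.84, adjusted p = 0.000323 by limma) and Dpt and Cd248 lower (-0.47 and -0.34). All 14 peaks of this list summed to 6730, 6267 and 7487 against 7751, 7274 and 7151, with 4 called higher and 3 lower. Of 5 myofibre markers 3 had a TSS peak (4662, 4092 and 5218 against 5599, 4912 and 4772). Mylpf was the highest, and none was called by limma (1 at an unadjusted p under 0.05, higher). Over all 9 peaks of this list 0 were called higher and 2 lower, with a median log2 change of -0.07.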

How the data were processed

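ATAC-seq peaks of freshly isolated MuSCs, 3 libraries of control and 3 of Taf4a sKO mice, were analysed from the table of all samples. The authors trimmed reads with Trimmomatic 0.39, aligned them to mm10 with STAR 2.7.11b, removed duplicates with Picard 3.1.1 and discarded multi-mapping reads, called peaks with MACS in each sample, unified them and counted reads per peak with featureCounts. The deposited unit is a score, the read count per peak multiplied by a depth factor and rounded, so no count model was fitted. Discarding multi-mapping reads can lower values where a gene has near-identical processed pseudogenes, as ribosomal protein genes do, and this effect was not tested. The results of some genes are not reported here by name, and they are counted in all totals. The authors' fold change columns were not used, and 0 sample columns were left unused.

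Values were compared as log2(value + 1) with limma 3.58.1 (R 4.3.3; mean-variance trend, robust moderation, genotype only, two-sided) over peaks with a mean above 10, with Benjamini-Hochberg adjustment. The fit was first tested on simulated data with known changes. The depth of each library in reads is reported by the study but was not used here, and 3 libraries per group limit the precision. Start sites came from GENCODE vM21 and promoter sequences from RefSeq (GRCm38.p6). Named were the called TSS peaks, the 3 highest and 3 lowest per kb, the 10 called other peaks with the smallest p, Rplp0, paralogs, and the called genes of each list; other genes were chosen after their values were seen. The members and gene lists were chosen with earlier results of these data known. Alternatives covered scaling, pseudocount, minimum mean, the distance that defines a TSS peak, the fold threshold, the replicate block and each library left out.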

Additional observations from a re-analysis of the deposited data

How the results depend on the processing

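With the deposited scaling 1 ribosomal protein TSS peak was higher and none lower (median log2 change 0.089), and 10 other peaks were higher and 9 lower (median -0.069). TMM scaling gave 2 higher and 5 lower TSS peaks (median -0.022) and 18 lower other peaks (median -0.18), and median-of-ratios scaling 2, 5, -0.024, 18 and -0.181 for the same quantities. Scaling to the total signal in peaks gave 13 lower TSS peaks (median -0.059) and 20 lower other peaks (median -0.216), and turned the Rplp0 change to -0.143. Scaling to the median of TSS peaks gave 4 higher TSS peaks (5.88%) and 16 lower other peaks. Among all protein-coding genes it called 14.1% of TSS peaks higher and 19.4% of other peaks lower. These scalings move the median over all peaks from 0.105 to -0.006, -0.007, -0.042 and 0.045. A fold threshold of 1.5 in place of 2 gave 12 gained or lost peaks in place of 7, and the share of all peaks past 1.5 is not given here. Leaving out 1 library at a time gave 1 to 17 higher TSS peaks, the latter without control replicate 3, with none lower and medians of 0.016 to 0.153. The median of the other peaks ran from -0.146 to 0.015 in these fits, and it was -0.025 and -0.122 with TSS distances of 500 and 3000 bp and -0.113 with a minimum mean of 50.

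The pseudocount, the minimum mean value and TSS distances of 500 and 3000 bp kept all these counts within 1.5 times. Calling TSS peaks by overlap with GENCODE starts, chosen after seeing the data, gave 1 higher and none lower. Of the 21 peaks followed singly, 16 kept their call under every alternative, and those of Rpl3, Rpl6, Rplp0, Rps16 and Rps18-ps6 did not. The fit with the replicate number as a block gave 11 higher and 9 lower other peaks and 1 higher and 0 lower TSS peaks, so that 1 call was added among the other peaks, and none of the calls without the block was lost. The correlations of the deviations of same-numbered libraries were 0.11, -0.118 and -0.0289. With 3 libraries per group these values do not settle whether same-numbered libraries were prepared together, which the labels do not give. The table gives no read depth, and with 3 libraries per group the median standard error of a ribosomal protein promoter's log2 change was 0.105.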
